A study of Mus musculus with 4 samples.

Results

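Dppa2, Dppa3, Dppa4 and Dppa5a are mouse genes of the "developmental pluripotency associated" group, named for their expression in pluripotent and germ cells. The 4 members were chosen by symbol from the 27542 rows (genes and transcribed loci) of the authors' deposited table, with their levels in both groups already known, and where a symbol had several rows the one with the highest mean level would be kept. All 4 had been tested by the authors. Total RNA of TBV2, a line of mouse embryonic stem (ES) cells, was profiled by RNA sequencing. The knockdown (KD) group consisted of 3 clones in which T-UCstem1, a long noncoding RNA with an ultraconserved element that the sample titles call uc.170, was lowered. The non-targeting control (NT) group was 1 library. Both groups were grown in serum with LIF, the cytokine that keeps ES cells from differentiating, on feeder cells at high density per the series text. How the knockdown was made is not stated in the sources used here, and the level of T-UCstem1 was not analysed here. The authors combined the KD clones into 1 value per gene, so no SD can be given for either group. Clone-to-clone spread within KD and culture-to-culture spread within NT are both unmeasured in these values.

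As a whole the group shares a naming origin and not a common ancestry. Dppa2 and Dppa4 are paralogs that lie side by side, encode nuclear proteins with a SAP domain that binds DNA, and work as a pair at promoters of developmental and germ-line genes and upstream of the 2-cell programme of the early embryo. Dppa3, also called Stella or PGC7, is a maternal and germ-cell protein that shields the early genome from loss of DNA methylation and restrains Uhrf1, the adaptor that recruits the maintenance methyltransferase. Dppa5a, also called Esg1, encodes a KH-domain protein that binds RNA and is abundant in ES cells. In mouse ES cells Dppa2, Dppa4 and Dppa5a are usually expressed throughout the culture, whereas Dppa3 is patchy in serum.

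Dppa2 was the member that stood apart. It was at 38.6 FPKM in KD cells and 0.766 FPKM in NT cells, where FPKM is a fragment count divided by transcript length in kilobases and by the size of the library. Dppa4 was at 69.1 FPKM in KD cells and 63.4 FPKM in NT cells. The row that holds Dppa5a was at 2721 FPKM in KD cells and 2552 FPKM in NT cells. Dppa3 was at 0.636 FPKM in KD cells and 0.701 FPKM in NT cells. Dppa4 and Dppa5a were thus well expressed in both groups, Dppa3 was below 1 FPKM in both, and Dppa2 was well expressed in KD cells alone.

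**Figure D1:**
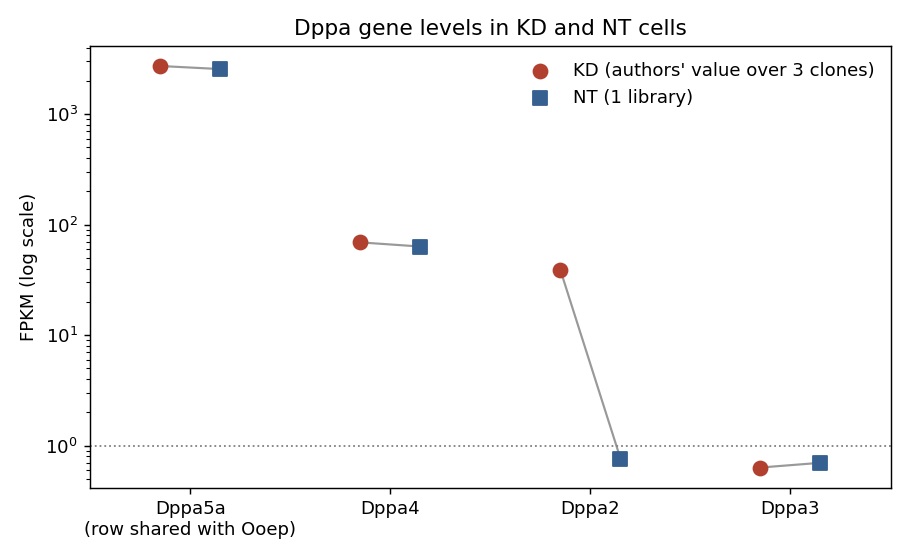
FPKM of the 4 Dppa genes on a log axis, with the KD value (circle, the authors' value over 3 clones) left of the NT value (square, 1 library). The dotted line marks 1 FPKM. Dppa2 is at 38.6 FPKM in KD cells and 0.766 FPKM in NT cells, while the points of the other members lie close together.

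Fold changes were taken as log2((KD FPKM + 1)/(NT FPKM + 1)), a scale on which differences of low genes come out too small. Since the members were chosen with this contrast known, their folds are a description and no test was run on them. The log2 fold was 4.49 for Dppa2, 0.12 for Dppa4, 0.093 for the Dppa5a row and -0.057 for Dppa3. Over the 12330 named rows with at least 1 FPKM in either group the lower quartile of the log2 folds was -0.16, the median 0.022 and the upper quartile 0.22, so that Dppa4 and Dppa5a lay between those quartiles. Of the 4 members 1, Dppa2, carried the authors' mark for a passed threshold in their deposited table, against 1.15% of all 15477 tested rows. Rows marked as higher in KD made up 0.963% of those tested and rows marked as lower 0.187%. An absolute log2 fold of at least 1 was reached by 1 of the 4 members, again Dppa2, and by 3.67% of the 12330 expressed rows. Nothing is read from these shares, because the same contrast was known when the members were chosen. The q-value in the authors' deposited table was 0.00815 for Dppa2 and 0.999 for each of the other members. With a single NT library, a low Dppa2 level of that culture and a difference that goes with the knockdown cannot be told apart.

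**Figure D2:**
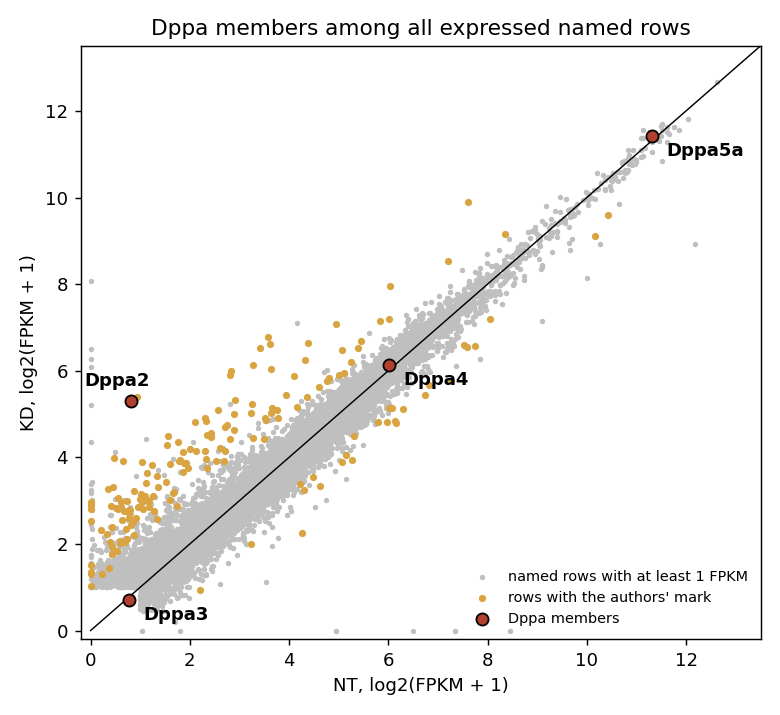
Levels of all named rows with at least 1 FPKM in either group, NT on the horizontal and KD on the vertical axis, both as log2(FPKM + 1); rows with the authors' mark are in yellow and the 4 Dppa members in red. Dppa2 lies far above the line of equal levels, with a log2 fold of 4.49, and Dppa4 and Dppa5a lie on it.

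Genes of chromosome Y also differed between the groups, and their part in the Dppa2 result was not tested. The expressed genes of chromosome Y were Eif2s3y, a translation initiation factor subunit, Ddx3y, an RNA helicase, and Uty, a histone demethylase relative. Eif2s3y was at 41.0 FPKM in KD cells and 0.912 FPKM in NT cells, Ddx3y at 14.8 FPKM in KD and 0.386 FPKM in NT cells, and Uty at 8.69 FPKM in KD and 0.274 FPKM in NT cells. All 3 carried the authors' mark. Of the 20 chromosomes with at least 20 expressed rows, chromosome 6 had the highest median log2 fold (0.26) and chromosome 10 the lowest (-0.16), while chromosome 16, which carries Dppa2 and Dppa4, was at 0.043. Markers of ES cells had similar summed levels in the groups: the 9 core genes summed to 3616 FPKM in KD cells and 3565 FPKM in NT cells. None of them was marked (1.15% of all tested rows were), and Pou5f1, which encodes OCT4, was at 1078 FPKM in KD and 1036 FPKM in NT cells. The median log2 fold of the core genes was 0.058, with 5 folds above 0 and 4 below, from -0.53 to 0.20.

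Primitive endoderm markers and most feeder fibroblast markers were higher in KD cells, while primed epiblast markers, given further below, had folds on both sides of 0. The 10 primitive endoderm markers summed to 346 FPKM in KD cells and 40.6 FPKM in NT cells, 9 of them were marked (1.15% of all tested rows were), and all 10 had folds above 0, with a median of 2.16. The 11 feeder fibroblast markers summed to 44.7 FPKM in KD cells and 13.0 FPKM in NT cells, and 2 of 8 tested were marked, also against 1.15%. Their median log2 fold was 1.27 over 5 genes with at least 1 FPKM in either group, and 0.46 without that minimum. Col1a1, whose fold is that median of 1.27, reached the minimum in KD cells alone. The marked genes were Bgn, a matrix proteoglycan at 13.3 FPKM in KD and 2.05 FPKM in NT cells, and Fbln2, a matrix glycoprotein at 14.3 FPKM in KD and 2.48 FPKM in NT cells. The fibrillar collagen genes Col1a1 (3.63 FPKM in KD, 0.920 FPKM in NT) and Col1a2 (4.03 FPKM in KD, 1.12 FPKM in NT) and the surface protein gene Thy1 (7.06 FPKM in KD, 5.08 FPKM in NT) were not marked. Col6a2 was at 0.710 FPKM in KD and 0.973 FPKM in NT cells, and Lum was listed at 0 in both groups. The part of these cells in the Dppa2 result was not tested. In bulk RNA, a smaller share of cells that express a gene and less RNA per cell cannot be told apart.

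The paralogs Dppa2 and Dppa4, which are neighbours, had similar levels in KD cells and very different levels in NT cells. On build mm9 the Dppa4 row spans chr16:48283848-48294405 and the Dppa2 row chr16:48303804-48319626, so that 9398 bp separate them. Both genes are on the plus strand, and the longest coding transcript has 7 exons for Dppa4 and 8 exons for Dppa2 in GENCODE M21. The level of Dppa2 was 55.9% of that of Dppa4 in KD cells and 1.21% in NT cells, comparing FPKM, which is per length. The NT level of Dppa2 was 1.98% of its KD level, and the plain KD over NT ratio was 50.4. For Dppa4 the plain KD over NT ratio was 1.09.

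Other expressed genes within 1 Mb of the pair, all on the Dppa2 side of it, did not share the Dppa2 difference. The nearest of these, Morc1, starts 127.5 kb from the start of Dppa2. Within 1 Mb of Dppa2 there were 10 other named rows, of which 4 reached 1 FPKM. Besides Dppa4 these were Morc1, a germ-line gene of the MORC chromatin family that is the next expressed gene along the chromosome, at 27.8 FPKM in KD and 34.5 FPKM in NT cells, Dzip3, a ubiquitin ligase gene at 14.5 FPKM in KD and 12.1 FPKM in NT cells, and C330027C09Rik at 44.6 FPKM in KD and 45.4 FPKM in NT cells. Their log2 folds lay between -0.30 and 0.24, with a median of 0.050 when Dppa4 is counted, and none was marked (1.15% of all tested rows were). Trat1, Retnlb, Retnla, Retnlg, Gm5485 and Myh15, the remaining rows, were each below 0.1 FPKM in both groups.

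**Figure D3:**
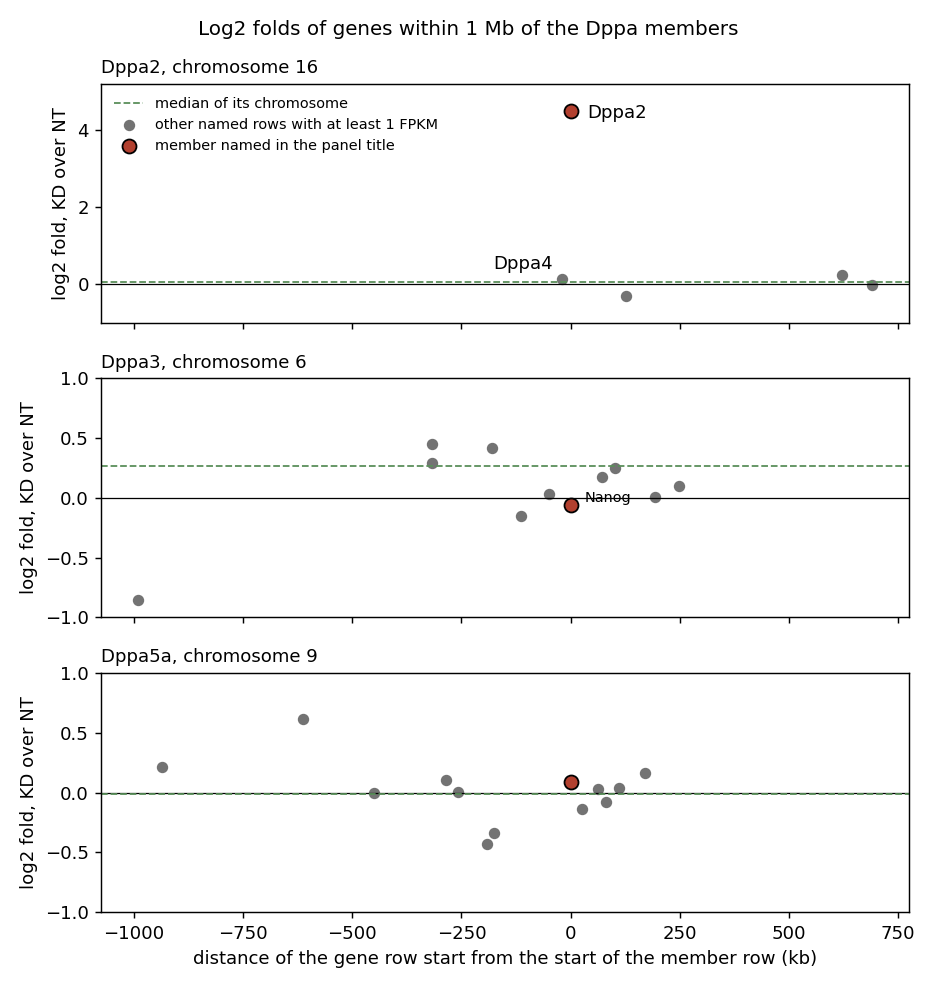
Log2 folds, KD over NT, of named rows with at least 1 FPKM that start within 1 Mb of Dppa2 (top), Dppa3 (middle) and Dppa5a (bottom), against the distance in kb from the start of the member row; red marks the member and the dashed line the median of its chromosome. The vertical scale of the top panel is wider. Dppa2 is at 4.49 while its neighbours lie between -0.30 and 0.24.

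Few genes had levels like those of Dppa2, by cutoffs chosen with its levels known. Of all named rows, 12 were at 10 FPKM or more in KD cells and under 1 FPKM in NT cells, and 4 of these carried the authors' mark. The marked ones were Dppa2, Eif2s3y, Ddx3y and Syce1, the last a component of the synaptonemal complex of meiosis. The 8 without the mark included 5 small RNA rows of the Snora and Scarna type. In the opposite direction 4 rows were at 10 FPKM or more in NT cells and under 1 FPKM in KD cells, all of them small RNA rows and none marked. By distance over the 2 log2(FPKM + 1) values, the 3 single-symbol tested genes closest to Dppa2 were Eif2s3y at a distance of 0.14, U90926 at 0.93 and Cubn, the uptake receptor cubilin, at 1.09. U90926 was at 20.5 FPKM in KD cells and 1.16 FPKM in NT cells without a mark, and Cubn at 21.6 FPKM in KD cells and 1.93 FPKM in NT cells with the mark. Likeness over 2 values describes levels only.

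Dppa4 belongs to a class of ES cell genes in which Dppa2 was the one marked. These ES cell associated transcripts (ECAT genes) also include Nanog, the homeobox factor of self-renewal, Fbxo15, an F-box gene regulated by OCT4 and SOX2, and Dnmt3l, a cofactor of de novo DNA methylation. Of 10 ECAT genes tested 1, Dppa2, was marked (1.15% over all tested rows). The median log2 fold was 0.11, with 7 folds above 0 and 3 below. The 10 include the members Dppa2, Dppa4 and Dppa5a, chosen with this contrast known, so nothing is read from these counts. Nanog was at 489 FPKM in KD and 434 FPKM in NT cells. Fbxo15 was at 114 FPKM in KD and 83.6 FPKM in NT cells. L1td1, a LINE-1 derived RNA-binding protein gene, was at 199.5 FPKM in KD and 163 FPKM in NT cells. Dnmt3l was at 168 FPKM in KD and 250 FPKM in NT cells, the lowest fold of the list (-0.57), and its q was 0.424 by the authors' deposited table. The genes nearest to Dppa4 by the same distance were Ndfip1, Atp6v1a and Dusp9, a phosphatase gene of ERK signalling, all within 0.0143 of it.

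Of the genes known to depend on Dppa2 or Dppa4, Syce1 was marked as higher in KD cells. In published mouse knockouts Syce1, Mael and Nkx2-5 lose expression or gain promoter methylation without these proteins. Syce1 was at 14.0 FPKM in KD cells and 0.581 FPKM in NT cells, with a log2 fold of 3.25, and the authors' deposited table gives it a q of 0.0276. Mael, a piRNA pathway protein gene of germ cells, was at 13.2 FPKM in KD cells and 3.89 FPKM in NT cells. Its log2 fold was 1.54 and its q in the authors' deposited table was 0.0941, without the mark. Nkx2-5, a heart transcription factor gene, was not tested and was at 0.181 FPKM in KD cells and 0.0395 FPKM in NT cells. The list held 1 marked gene among 2 tested, against 1.15% of all tested rows, and it was chosen with earlier results of these data known.

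The 2-cell genes, which Dux switches on downstream of Dppa2 and Dppa4, were listed at or near 0 in NT cells. Of 18 rows found, 12 were tested and 4 were marked as higher in KD, against 0.963% of all tested rows, and 13 were listed at 0 in NT cells. With NT levels at or near 0, a row could be tested only through its KD reads and marked only as higher. The marked share is therefore not comparable with that of all tested rows, and nothing is read from it. Zscan4f, of the telomere-associated Zscan4 family, was at 6.77 FPKM in KD cells and listed at 0 in NT cells. Zscan4c was at 4.77 FPKM and Zscan4e at 1.84 FPKM in KD cells, and both were listed at 0 in NT cells. Usp17lb, a deubiquitinase gene of the Dub family, was at 1.54 FPKM in KD cells and listed at 0 in NT cells. Zscan4d was at 4.09 FPKM in KD cells and 0.0146 FPKM in NT cells, and Zscan4a at 3.34 FPKM in KD cells and 0.0139 FPKM in NT cells, neither of them marked. Usp17le was at 1.31 FPKM in KD cells and 0.0153 FPKM in NT cells, without the mark. All 18 rows together summed to 27.7 FPKM in KD cells and 0.110 FPKM in NT cells, less than the KD level of Dppa2 alone. The Zscan4 and Usp17l genes are near-identical copies, so the share of each is uncertain and the 4 marked genes are not separate families.

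**Figure D4:**
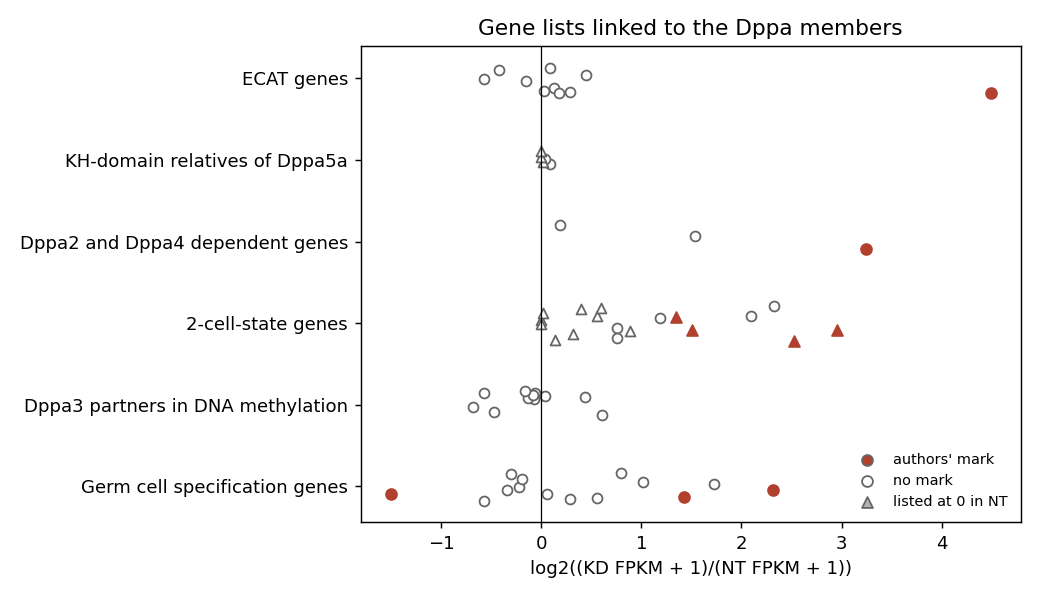
Log2 folds, KD over NT, of every member found of 6 gene lists tied to the Dppa genes by origin or function; filled symbols carry the authors' mark and triangles are listed at 0 in NT cells. Vertical position within a list is arbitrary. Dppa2 is the point at 4.49 in the ECAT list. The list labelled Dppa3 partners in DNA methylation, which holds DNA methylation genes in general, has no marked gene, where 1.15% of all tested rows were marked.

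Dppa3 was low in both groups, with a KD minus NT difference of -0.0658 FPKM that has no replicate spread to be judged by. Its row, chr6:122576442-122580289 on mm9, is on the plus strand, and its longest coding transcript in GENCODE M21 is 833 bp with 4 exons. Low NT values of FPKM multiplied by length in kb, taken over single-transcript genes of at least 1500 bp, were most frequent at 0.033. That bin held 26 of the 326 low values. It would be the worth of 1 fragment if the GENCODE M21 lengths match the annotation used by the authors, which is not stated. On that reading the NT level of Dppa3 corresponds to about 17.7 fragments and that of Dppa2 to about 56.8 fragments, so Dppa2 in NT cells was low and not at 0. The combined KD value gave no depth per clone. Dppa3 has processed pseudogenes, and how their reads were assigned is not given.

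Dppa3 lies beside Nanog on chromosome 6, whose genes were higher in KD cells in general. Within 1 Mb of it 10 other named rows reached 1 FPKM, 8 of them with folds above 0, and their median log2 fold was 0.14. None of the 10 was marked, where 1.15% of all tested rows were. Slc2a3, a glucose transporter gene, was at 591 FPKM in KD and 496 FPKM in NT cells, and Phc1, a Polycomb subunit gene, at 172 FPKM in KD and 125 FPKM in NT cells. The row of Gdf3, a TGF-beta ligand gene, also holds Apobec1, and it was at 57.1 FPKM in KD and 55.9 FPKM in NT cells. A2m, a protease inhibitor gene, had the lowest fold of the 10, at 5.60 FPKM in KD and 10.9 FPKM in NT cells. M6pr, Rimklb, Mfap5, Foxj2 and Necap1 had log2 folds between -0.15 and 0.41. With KD rescaled so that the median of chromosome 6 was 0, the log2 fold of Dppa3 was -0.15. Zfp174, Milr1 and Zbp1 were the genes with the most similar pair of levels, within 0.0140 of Dppa3.

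The DNA methylation genes set beside Dppa3 were all tested, and none of 11 was marked, where 1.15% of all tested rows were. At that share, the lack of a mark says nothing about these genes in particular. Their median log2 fold was -0.079, with 3 folds above 0 and 8 below. Uhrf1, the protein that Dppa3 restrains, was at 91.1 FPKM in KD and 126 FPKM in NT cells, and its q was 0.487 by the authors' deposited table. Trim28, the corepressor at imprinted regions, was at 405 FPKM in KD and 454 FPKM in NT cells, and Zfp57, the zinc finger protein that recruits it there, at 161 FPKM in KD and 170 FPKM in NT cells. The maintenance methyltransferase gene Dnmt1 was at 58.6 FPKM in KD and 56.9 FPKM in NT cells. Dnmt3b, a de novo methyltransferase gene, had the highest fold of the list (0.61), at 25.6 FPKM in KD and 16.5 FPKM in NT cells. Tdg, a DNA glycosylase gene that removes oxidised methylcytosine, had the lowest (-0.68), at 44.4 FPKM in KD and 71.7 FPKM in NT cells.

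Germ cell genes, among which Dppa3 is a marker, were marked in both directions. Of 14 tested, 2 were marked as higher in KD, 1 as lower and 11 were not marked, where 0.963% of all tested rows were marked as higher and 0.187% as lower. The median log2 fold of 12 expressed genes was 0.17. Ddx4, the germ-cell helicase VASA, was at 6.16 FPKM in KD cells and 0.436 FPKM in NT cells. Stra8, which starts meiosis and lies on chromosome 6, was at 88.9 FPKM in KD cells and 32.3 FPKM in NT cells. Ifitm1, an interferon-inducible membrane protein gene of early germ cells, was the gene marked as lower, at 53.0 FPKM in KD cells and 152 FPKM in NT cells. Its relative Ifitm3 was at 59.8 FPKM in KD and 34.1 FPKM in NT cells, without the mark. Alpl, the alkaline phosphatase of germ and ES cells, was at 65.3 FPKM in KD and 62.5 FPKM in NT cells, and Dnd1, an RNA-binding protein gene of germ cells, at 47.1 FPKM in KD and 54.0 FPKM in NT cells. Dazl, a translation regulator of germ cells, was at 6.64 FPKM in KD and 1.31 FPKM in NT cells, without the mark (q of 0.0524 by the authors' deposited table). The primordial germ cell regulators Prdm14 (18.9 FPKM in KD, 23.6 FPKM in NT), Tfap2c (16.5 FPKM in KD, 21.2 FPKM in NT) and Prdm1 (2.56 FPKM in KD, 4.31 FPKM in NT) were not marked.

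Dppa5a had the highest level of the members, in a row that it shares with Ooep. The row, chr9:78214861-78227221 on mm9, ranked 15th of 23703 named rows by FPKM in KD cells and 17th in NT cells. Ooep is an oocyte KH-domain gene next to Dppa5a, and the table gives no value for either gene alone. Against Dppa4, the row was at 39.4 times the level in KD cells and 40.3 times in NT cells. The genes with the most similar levels were Rpl12, Rpl26 and Rps20, which encode ribosomal proteins, within 0.13 of it. Dppa5a has annotated pseudogenes on the same chromosome, and how their reads were assigned is not given.

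Those relatives and neighbours of Dppa5a that were tested were likewise unmarked, where 1.15% of all tested rows were marked. Khdc3, a KH-domain gene of the oocyte cortex, was at 11.1 FPKM in KD cells and 10.8 FPKM in NT cells. Khdc1a was at 0.00909 FPKM in KD cells and listed at 0 in NT cells, and Khdc1b and Khdc1c were listed at 0 in both groups. None of these Khdc1 genes was tested by the authors. Within 1 Mb of the row 12 other named rows reached 1 FPKM, with a median log2 fold of 0.019 and 7 folds above 0. Eef1a1, the translation elongation factor gene, was at 6486 FPKM in KD and 6295 FPKM in NT cells. Gsta4, a glutathione transferase gene, was at 183 FPKM in KD and 231 FPKM in NT cells, and Gclc, of glutathione synthesis, at 14.5 FPKM in KD and 9.13 FPKM in NT cells, the highest fold among those 12 rows (0.61). Lrrc1, Elovl5, Fbxo9, Ick, C920006O11Rik, Ddx43, Mb21d1, Mto1 and Slc17a5 had folds between -0.43 and 0.22.

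The order of the members by FPKM was Dppa5a (shared row), Dppa4, Dppa2 and Dppa3 in both groups. In KD cells Dppa2 ranked 2214th of 23703 named rows, above 90.7% of them, and in NT cells it ranked 12093rd, above 49.0%. Dppa4 ranked 1184th in KD cells and 1263rd in NT cells. Dppa3 ranked 12866th in KD cells and 12226th in NT cells. In NT cells Dppa2 and Dppa3 differed by less than 0.1 FPKM, with no spread to judge them by.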

How the data were processed

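RNA was sequenced from 3 KD clones and 1 NT library of TBV2 ES cells. TopHat, Cufflinks and Cuffdiff were used on build mm9, per the submitters' processing notes. No version, annotation, scaling or read depth is stated in the sources used here. In the deposited table there is 1 FPKM per gene for a condition named treated, taken as the authors' value over the KD clones, and 1 for control, taken as NT. Its p-value and q-value columns are the authors' Cuffdiff results, per the file headers. The largest q among the 178 marked rows was 0.0478. Of 27542 rows, 15477 were tested, 12055 were not, 9 failed and 1 exceeded the depth limit.

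Log2 folds used a pseudocount of 1 FPKM. The row with the highest mean was kept where a symbol had several; each member had 1 row. Starts were made 1-based. No test was run, since each group has 1 value. The members, the 10 gene lists and the rules were chosen with earlier results of these data known. Of 96 list genes 95 were found; Duxf3 was not matched. List medians cover genes with at least 1 FPKM in either group and lists with at least 5 such genes, none at 0 in NT. Named genes were the members, marked list genes and up to 3 abundant unmarked genes per list, expressed genes within 1 Mb, and the 3 genes with the closest levels; others were added with their values in view, namely Ddx3y, Uty, Fbxo15, L1td1, Uhrf1, Dnmt1, Dnmt3b, Tdg, Dazl, Prdm14, Tfap2c, Prdm1, Col6a2, Lum, Khdc1b, Khdc1c and the rows near Dppa2 under 1 FPKM. The log2 fold formula and a plain median were tried on simulated data in separate code, without the list lookup or the FPKM minimum. Computation used Python 3.11.15 with pandas 2.3.3.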

Additional observations from a re-analysis of the deposited data

How the results depend on the processing

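The log2 fold of Dppa2 was 5.48 with a pseudocount of 0.1 FPKM and 2.92 with one of 5 FPKM, against 4.49 with 1 FPKM. Rescaling KD to a median fold of 0, over all rows or over chromosome 16, gave 4.47 and 4.45. Across the pseudocounts, the sum of rows and both rescalings, the folds of Dppa3, Dppa4 and the Dppa5a row moved by less than 0.1 and kept their sign. Dppa2 alone was counted by the authors' mark (1.15% of all tested rows), by an absolute log2 fold of at least 1 (3.67% of the 12330 expressed rows) and by a q of at most 0.1. The share of all rows at that q is not given here, and all 3 counts read the same contrast. With at least 5 FPKM, the median of the germ cell list was 0.29, of the feeder fibroblast markers 2.13 and of the primitive endoderm markers 2.45. Without a minimum, the fibroblast median was 0.46 and the primed epiblast median 0.15, against 1.27 and 0.039 with 1 FPKM. Of 41 alternative values 34 moved by less than 0.1 or kept their count. The neighbour median of the Dppa5a row was 0.019 within 1 Mb and -0.079 within 250 kb, so its sign depends on the window. That of Dppa3 was 0.14 within 1 Mb and 0.098 within 250 kb. Medians of neighbours within 250 kb of Dppa2 and Dppa4 rest on fewer than 3 genes and are not given. No paired analysis was possible because each group has 1 value in the deposited table, which also bars leaving out a clone. Without replicate values no error can be set on any fold.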

Other observations

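The contrast between Dppa4 and Dppa2 was set against other adjacent genes, a comparison chosen after its value was seen. Among 5047 pairs of adjacent single-symbol tested genes with at least 1 FPKM and no more than 20 kb between them, the median absolute difference in log2 fold was 0.25. Dppa4 and Dppa2 differed by 4.36, and 32 pairs differed by more than 2. The 3 pairs with a larger difference than Dppa4 and Dppa2 all included a small nucleolar RNA gene. Primed epiblast markers, which mark the stage after naive pluripotency, held no marked gene among 6 tested, where 1.15% of all tested rows were marked. Otx2, a homeobox factor of that stage, was at 18.4 FPKM in KD cells and 21.3 FPKM in NT cells. Fst, follistatin, was at 4.72 FPKM in KD cells and 1.62 FPKM in NT cells. Dppa1, which shares the name and is not among the 4 genes, was not tested by the authors and was at 0.00884 FPKM in KD cells and listed at 0 in NT cells.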
